A study of Mus musculus with 9 samples.

Results

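Glucose enters cells through the facilitative transporters of the GLUT family, encoded by the Slc2a genes, and the arrestin-like protein Txnip acts on several of them. The set examined here consisted of 9 Slc2a genes (Slc2a1, Slc2a3, Slc2a4, Slc2a5, Slc2a6, Slc2a8, Slc2a9, Slc2a10 and Slc2a12) together with Txnip. Its 10 members were taken by gene symbol from the 18272 genes of the table, and all 10 passed the filter on low counts. RNA-seq was performed on the tibia of female C57BL/6J mice in 3 groups of 3 mice, with 1 library per mouse. NGT mice had normal glucose tolerance, had been injected with citrate vehicle and received saline. T1D mice had been made diabetic with a single injection of streptozotocin (STZ), which destroys the beta cells of the pancreas, and received saline. Lira mice had the same STZ-induced diabetes and received liraglutide, an agonist of the GLP-1 receptor, for a labelled 8 weeks in mice 1 and 2 and 9 weeks in mouse 3. Tibias from the insulin-treated groups of the same study were not sequenced.

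GLUT transporters move hexoses down their concentration gradient, and they differ in substrate, in tissue and in where in the cell they reside. GLUT4, the product of Slc2a4, is held in vesicles of muscle and fat cells until insulin brings it to the surface, whereas GLUT1 (Slc2a1) serves basal uptake in many cells, osteoblasts among them. Txnip binds thioredoxin and promotes the internalization of GLUT1 and GLUT4, and its transcription is induced by glucose through the factors MondoA and ChREBP, which bind paired CACG elements in its promoter.

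The promoter of Txnip is shown because it carries this pairing, and that of its arrestin-domain relative Arrdc4 because it is another known target of MondoA. RefSeq promoter windows on the mouse build GRCm38.p6 were present for 8 of the 10 members, Slc2a3 and Slc2a4 being the others. The 250 bases before the start of each gene are given from 5′ to 3′ on the gene's strand, at chr3:96557707-96557956 on the plus strand for Txnip and at chr7:68749239-68749488 on the minus strand for Arrdc4. Capitals mark the fixed letters of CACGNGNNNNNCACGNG in Txnip and the hexamer CACGTG in Arrdc4.
Txnip: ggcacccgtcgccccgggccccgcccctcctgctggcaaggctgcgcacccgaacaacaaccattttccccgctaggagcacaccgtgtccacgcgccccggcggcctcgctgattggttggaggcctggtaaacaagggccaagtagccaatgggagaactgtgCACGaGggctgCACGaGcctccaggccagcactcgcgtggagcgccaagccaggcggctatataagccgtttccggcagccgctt
Arrdc4: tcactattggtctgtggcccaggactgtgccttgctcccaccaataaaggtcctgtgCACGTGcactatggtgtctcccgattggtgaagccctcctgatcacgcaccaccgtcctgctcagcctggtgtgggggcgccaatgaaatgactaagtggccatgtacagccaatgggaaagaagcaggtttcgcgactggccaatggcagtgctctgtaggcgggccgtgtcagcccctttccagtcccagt

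Both strands of the 300-base windows around every annotated start were searched. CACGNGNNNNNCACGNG, a pair of CACG elements 5 bases apart, was found in the window of Txnip, from position -85 to -69 relative to the start, and in no other member. It was present in 16 of all 32851 windows (0.0487%). The palindrome CACGTG, which may also form part of the longer motif, was in none of the 8 member windows and in 2349 windows in all (7.15%). GGGCGG, the core of a GC box, was in the windows of 5 of the 8 members, namely Slc2a1, Slc2a5, Slc2a6, Slc2a10 and Txnip, and in 35.7% of all windows. These matches describe letters and not binding.

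Each library held between 13086373 and 16528394 counts. Levels were expressed as CPM, counts scaled to a fixed library total after TMM normalization, on which scale the upper limit for a gene with no count, taken as 3 counts in that library, was 0.163 to 0.237. The bones are described as freed of muscle before freezing. Even so, 22 skeletal muscle markers, led by Myh4, Atp2a1 and Acta1, took 16.6 to 24.99% of the counts in NGT, 13.8 to 24.5% in T1D and 16.7 to 22.1% in Lira. The 8 osteocyte markers together reached no more than 0.00564% of the counts in any library, and Mepe, Sost and Fgf23 were each at 0 in at least 1 library. NGT mouse 1, T1D mouse 1 and Lira mouse 3 had the lowest muscle share of their groups (16.6%, 13.8% and 16.7%). They also had the 3 highest TMM factors (1.21, 1.25 and 1.12, against 0.883 to 0.995 in the other 6 libraries), so that some values are also given on the deposited FPKM scale.

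Txnip and Slc2a4 were the most abundant members per transcript length by a wide margin. Over the 9 libraries Txnip averaged 355 ± 137 FPKM (SD) and Slc2a4 averaged 235 ± 54.8 FPKM. Their ranges overlapped, with Txnip the higher of the pair in 6 of 9 libraries. Next came Slc2a1 at 6.05 ± 3.09 FPKM, and every library had more Slc2a4 than Slc2a1. GLUT8, encoded by Slc2a8 and residing on intracellular membranes, followed at 5.78 ± 0.535 FPKM. Slc2a3, for the high-affinity transporter GLUT3 of neurons and leukocytes, averaged 3.85 ± 4.10 FPKM, and Slc2a12, for GLUT12, averaged 3.34 ± 0.388 FPKM. The ranges of these 4 genes overlapped, except that every Slc2a8 value was above every Slc2a12 value. Slc2a1 exceeded Slc2a8 in only 3 of 9 libraries and Slc2a3 exceeded Slc2a12 in 4 of 9. Slc2a6 (GLUT6, of lysosomes in macrophages) averaged 0.994 FPKM, Slc2a10 (GLUT10) 0.607, Slc2a9, for a urate transporter, 0.396 and Slc2a5, for the fructose transporter GLUT5, 0.394 FPKM. Slc2a12 was above Slc2a10, Slc2a9 and Slc2a5 in all 9 libraries, while neighbours among the lowest 4 genes overlapped.

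**Figure D1:**
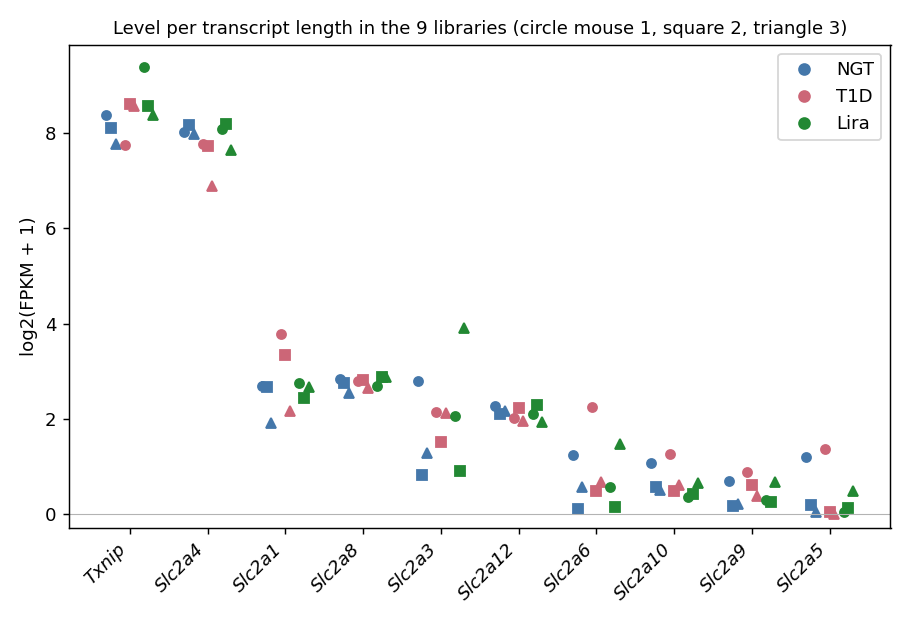
Level of each gene per transcript length, as log2(FPKM + 1) on a linear axis, with 1 point per library, coloured by group and shaped by mouse number, and the genes ordered by mean FPKM over 9 libraries. Txnip and Slc2a4 lie far above the rest, and Slc2a3, Slc2a5 and Slc2a6 spread more widely than Slc2a8 and Slc2a12.

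The first question was whether diabetes changed these genes in the tibia. No member passed the thresholds for a differentially expressed gene (DEG) in T1D against NGT, an adjusted p under 0.05 and a fold change over 2 by edgeR's quasi-likelihood test, nor did any of the 13960 genes tested (0%). At an unadjusted p under 0.05, 0 of 10 members were called by edgeR, against 552 of all genes (3.95%). The count over all genes was 1021 without NGT mouse 1, 225 without NGT mouse 2 and 254 without NGT mouse 3. DESeq2 also placed 0 genes past the thresholds in this comparison, and of the members it gave Slc2a4 the lowest p (unadjusted p = 0.0242, adjusted p = 0.315). With 1 mouse left out, an unadjusted p under 0.05 by edgeR was reached by Slc2a1 (0.00608 without T1D mouse 3 and 0.0436 without NGT mouse 2), Slc2a4 (0.0331 without NGT mouse 1 and 0.0303 without T1D mouse 2), Slc2a9 (0.0273 without NGT mouse 1) and Slc2a5 (0.0421 without T1D mouse 1, where its log2 fold change turned to -4.77), with adjusted p-values of 0.596 or more. Groups of 3 did not separate for any member on the CPM scale, where 8.6% of all genes had groups that did not overlap. The median log2 fold change of the members was 0.15, against 0.02 over all tested genes, and 7 of 10 were above 0, against 52.1% of all genes.

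Slc2a4 had the lowest p of the members in T1D against NGT. It measured 533, 813 and 716 CPM in NGT mice 1, 2 and 3 and 423, 536 and 326 CPM in T1D mice 1, 2 and 3. Only T1D mouse 2 reached into the NGT range, just above NGT mouse 1. The log2 fold change was -0.68 (SE 0.30, 95% confidence interval -1.37 to 0.00438), with an unadjusted p of 0.0512 and an adjusted p of 0.977 by edgeR, and an exact permutation p of 0.2, two-sided. In bulk tissue, fewer cells of a type and less Slc2a4 RNA per cell cannot be told apart. In FPKM the groups were apart, with 259, 289 and 253 in NGT and 218, 213 and 118 in T1D, which gave an exact permutation p of 0.1, the smallest that 3 against 3 mice allow, and an unadjusted p of 0.0458 by limma (adjusted p = 0.997). Of all tested genes, 7.25% did not overlap between these groups in FPKM. The 22 muscle markers had a median log2 fold change of -0.12 in the same comparison, 15 of them below 0. Relative to the mean log2(CPM + 1) of these markers in the same library, Slc2a4 differed by -0.54 between T1D and NGT (exact permutation p = 0.2, two-sided), with overlapping ranges. The 11 adipocyte markers had a median log2 fold change of 0.50, with 8 above 0, against 52.1% of all genes. As shares of the raw counts they took 0.683%, 0.708% and 0.555% in NGT mice 1, 2 and 3 and 0.775%, 0.856% and 0.800% in T1D. Every T1D share was above every NGT share, but in CPM the sums overlapped. These were 5673, 7931 and 6292 CPM in NGT and 6218, 8611 and 8821 CPM in T1D. Of the 11 osteoclast markers tested, 9 were above 0 (median 1.47), against 52.1% of all genes, and 1 was higher at an unadjusted p under 0.05 by edgeR, against 2.36%. They summed to 379, 110 and 188 CPM in NGT and 534, 191 and 661 in T1D, with overlapping ranges, and their part in the Slc2a4 values was not tested.

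Slc2a1 lay on the other side. NGT mice had 11.3, 15.5 and 8.07 CPM and T1D mice had 25.6, 23.4 and 9.74 CPM. Mice 1 and 2 of T1D were above all NGT mice and mouse 3 was within their range. The log2 fold change was 0.75 (SE 0.38, adjusted p = 0.977 by edgeR, unadjusted p = 0.0778). Same-numbered NGT and T1D libraries correlated in their deviations from the group means, although no source describes a pairing of mice. Within numbers Slc2a4 was lower in T1D in all 3 pairs, by 0.33, 0.60 and 1.13 on the log2(CPM + 1) scale. Slc2a1 was higher in all 3, by 1.11, 0.57 and 0.24. Slc2a6 and Slc2a9 were also higher in all 3 pairs. Slc2a12 was lower in all 3 in CPM, in mouse 2 by only 0.0005. In FPKM that pair went the other way, with 3.29 in NGT and 3.69 in T1D. The share of all genes with 1 direction in all 3 pairs was not computed, so these directions have no background to be read against. An edgeR fit of both groups took mouse number as a block, a choice drawn from these same counts. In it the unadjusted p was 0.0145 for Slc2a4 and 0.0226 for Slc2a1, and the adjusted values were 0.261 and 0.284. Of 10 members 2 were under an unadjusted 0.05, against 14% of all genes. The blocked fit called no gene past the thresholds either.

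Txnip did not follow a single direction within T1D. NGT mice had 783, 873 and 691 CPM, while T1D mice had 485, 1105 and 1179 CPM. T1D mouse 1 was below all NGT mice and the other two were above them, and the log2 fold change was 0.24 (SE 0.42, adjusted p = 0.986 by edgeR). Within numbers the difference was -0.69, 0.34 and 0.77 on the log2(CPM + 1) scale.

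The second question was whether liraglutide changed the genes in diabetic mice. Against T1D, no member and no other gene (0%) was past the thresholds by edgeR, with 0 of 10 members and 465 of all genes (3.33%) at an unadjusted p under 0.05. The latter count fell to 259 when Lira mouse 1 was left out, and was 740 when Lira mouse 3 and 706 when T1D mouse 3 was left out. The lowest member p with 1 mouse left out was 0.0163 for Slc2a4 without Lira mouse 3 (adjusted p = 0.751 by edgeR), and Slc2a4 without T1D mouse 2 (0.0376) and Slc2a1 without T1D mouse 3 (0.0191) were also under 0.05. DESeq2 placed 1 gene past the thresholds, which was no member. No member had separate groups on the CPM scale, against 7.13% of all genes, and the median log2 fold change of the members was -0.19 against 0.04 over all genes, with 5 of 10 above 0 against 55.3%. Slc2a4 measured 745, 814 and 449 CPM in Lira mice 1, 2 and 3, so that mice 1 and 2 were above every T1D mouse and mouse 3 was within the T1D range. Its log2 fold change was 0.64 (SE 0.30, 95% confidence interval -0.04 to 1.33), with an unadjusted p of 0.0627 and an adjusted p of 0.978 by edgeR. By DESeq2 its unadjusted p was 0.0327 and its adjusted p 0.999. Slc2a1 measured 16.1, 12.4 and 12.4 CPM in Lira and had a log2 fold change of -0.53 (SE 0.38, adjusted p = 0.978 by edgeR) against T1D. All 3 Lira values lay inside the T1D range for this gene. Both comparisons use the same T1D libraries, so that a value opposite in sign to the first comparison is no separate evidence.

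Txnip was highest in Lira mouse 1. The Lira mice had 2064, 1183 and 833 CPM, the first 2 above every T1D and NGT library and the third within the NGT range. Lira mouse 2 was so by a narrow margin, 1183 against 1179 CPM in T1D mouse 3, and in FPKM it was below T1D mouse 2 (381 against 391). The log2 fold change was 0.56 (SE 0.42, adjusted p = 0.978 by edgeR) against T1D and 0.80 (SE 0.42, unadjusted p = 0.0913, adjusted p = 0.999) against NGT. An exact permutation test of Lira against NGT gave p = 0.2, two-sided, and DESeq2 an unadjusted p of 0.0498 (adjusted p = 1.00).

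For Lira against NGT, 0 genes (0%) passed the thresholds by edgeR or DESeq2, 0 of 10 members had an unadjusted p under 0.05 by edgeR, against 109 of all genes (0.781%), and no member had separate groups, against 4.27% of all genes. Log2 fold changes were above 0 for 6 of 10 members, against 55.5% of all genes, with a median of 0.18 against 0.04. Of all genes, 313 were under an unadjusted 0.05 without NGT mouse 1, 59 without NGT mouse 3 and 449 without Lira mouse 2, and of the members Txnip was, without Lira mouse 3 (unadjusted p = 0.0357, adjusted p = 1.00 by edgeR). Slc2a4 differed by -0.04 on the log2 scale between these groups, with a 95% confidence interval of -0.72 to 0.65, which leaves room for a change of that size in either direction. A test over the 3 groups at once, edgeR's F test, called 0 genes, and 0 of 10 members were under an unadjusted 0.05, against 336 of all genes (2.41%), a count of 173 without NGT mouse 2 and 158 without NGT mouse 3.

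**Figure D2:**
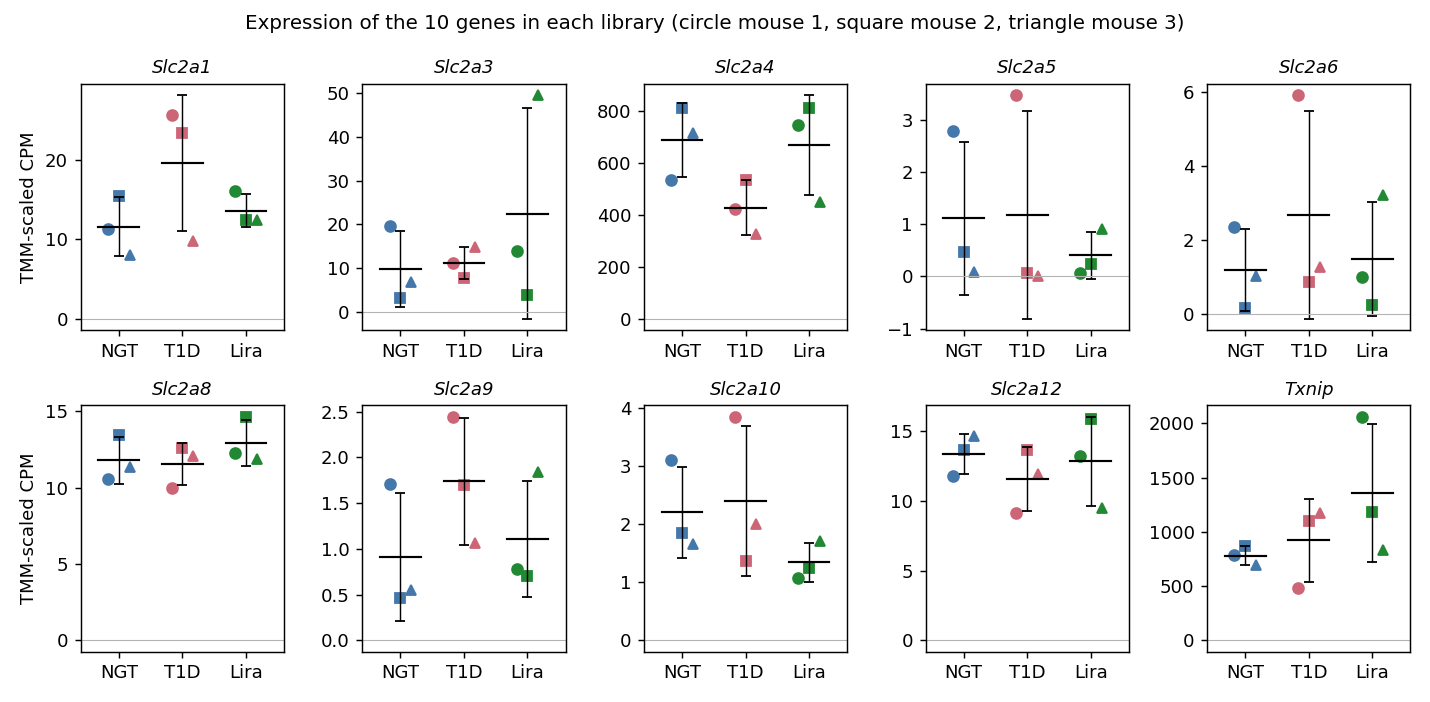
TMM-scaled CPM of each gene in each of 9 libraries, with a symbol per mouse, the horizontal line at the group mean, the bar at 1 SD and a separate linear axis per gene. Slc2a4 is 423, 536 and 326 in T1D against 533 to 813 in NGT, and Slc2a5, Slc2a6, Slc2a9 and Slc2a10 are highest in mouse 1 of NGT and T1D and in mouse 3 of Lira. Slc2a5 passed the low-count filter only through these libraries.

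**Figure D3:**
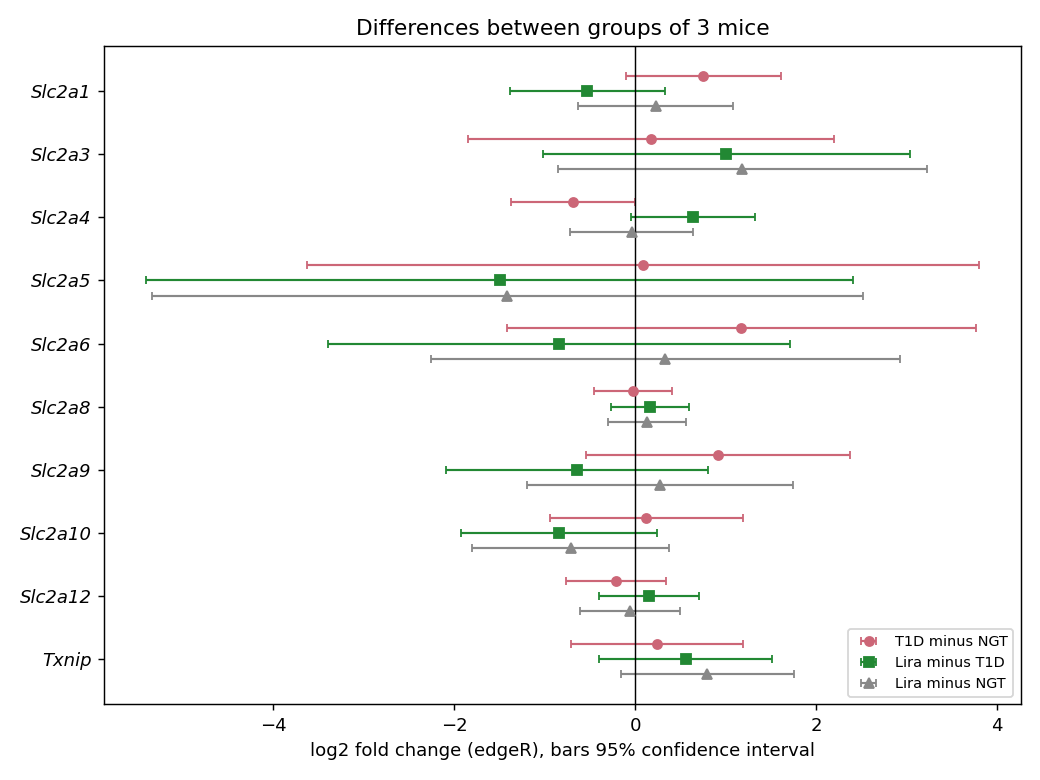
Log2 fold change of each gene in the 3 comparisons by edgeR, with bars for the 95% confidence interval, from 3 mice per group. All 30 intervals cross 0, that of Slc2a4 in T1D minus NGT ending at 0.00438, and the widest belong to Slc2a5 and Slc2a6.

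Slc2a8 and Slc2a12 were the steadiest members. The highest FPKM of Slc2a8 was 1.33 times the lowest over the 9 libraries, from 4.79 to 6.38, and that of Slc2a12 was 1.37 times the lowest, from 2.81 to 3.85. For Slc2a8 the log2 fold change of T1D against NGT was -0.03 with a 95% confidence interval of -0.46 to 0.40, and its sign turned with library-size scaling. For Slc2a12 it was -0.21 (-0.76 to 0.35).

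The other 5 transporters varied widely among mice of the same group. Slc2a3 measured 19.7, 3.17 and 6.73 CPM in NGT, 11.04, 7.60 and 14.9 in T1D and 13.9, 3.82 and 49.6 in Lira. Lira mouse 3 alone set the Lira mean, and without it the log2 fold change of Lira against T1D went from 1.01 to -0.33. Slc2a6 measured 2.35, 0.155 and 1.03 CPM in NGT, 5.93, 0.851 and 1.27 in T1D and 0.999, 0.234 and 3.21 in Lira. Its log2 fold change of T1D against NGT, 1.18 (SE 1.14), was -0.16 without T1D mouse 1. Slc2a9 ranged from 0.464 to 1.71 CPM in NGT, 1.07 to 2.45 in T1D and 0.701 to 1.84 in Lira. Slc2a10, known for its loss in arterial tortuosity syndrome, ranged from 1.66 to 3.11 CPM in NGT, 1.37 to 3.86 in T1D and 1.07 to 1.72 in Lira. Slc2a5 passed the low-count filter through NGT mouse 1, T1D mouse 1 and Lira mouse 3, with 44, 64 and 16 counts. The other 6 libraries held 0 to 6 counts of it, T1D mouse 3 having 0, which allows up to 0.200 CPM.

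Those 3 libraries were the ones of lowest muscle share. Slc2a6, Slc2a9 and Slc2a10 were each highest there in all 3 groups, in CPM and in FPKM. Slc2a5 was highest there too, but it passed the filter only through these libraries, so its position is no separate observation. Slc2a8 and Slc2a12 were lowest there in all 3 groups in CPM, but in FPKM Slc2a8 was lowest there in 0 groups and Slc2a12 in 1. With the 3 libraries left out, 0 members passed the thresholds in any comparison, nor did any other gene. Unadjusted p-values by edgeR under 0.05 were those of Slc2a4 (0.0208) and Slc2a9 (0.0489) in T1D against NGT, both at an adjusted p of 0.627. In Lira against T1D it was Slc2a4 (0.0187, adjusted p = 0.865), and in Lira against NGT Txnip (0.0121, adjusted p = 0.999). Of all genes, 1033, 699 and 349 were under 0.05 in these comparisons.

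The level of each member was next set against that of 11 marker lists of cell types over the 9 libraries, as 110 relations of log2(CPM + 1) with exact permutation over pairings and Benjamini-Hochberg adjustment over all 110. Adjusted p-values were under 0.05 for 13 relations by Pearson's r and for 12 by Spearman's rho, 10 of them by both, of which 7 were positive and 3 negative. Slc2a3 rose with the neutrophil markers, led by Ngp, S100a9 and S100a8 (r = 0.915, exact p = 0.000504, adjusted p = 0.0159, rho = 0.933, exact p = 0.00075, adjusted p = 0.0361). The coefficient was 0.964 without the 2 libraries farthest from the median, NGT mouse 2 and T1D mouse 2, 0.910 within groups and 0.907 in FPKM. The 14 neutrophil markers summed to 14.2 to 2609 CPM in NGT, 64.5 to 1592 in T1D and 132 to 5656 in Lira, with the maximum in Lira mouse 3. The other two Lira mice had 837 and 132 CPM, within the T1D range. All 14 had a log2 fold change above 0 in Lira against T1D, as did 55.3% of all genes, and 0 of them had an unadjusted p under 0.05 by edgeR. Slc2a3 also rose with erythroid markers (r = 0.899, exact p = 0.000807, adjusted p = 0.0178, rho = 0.90) and osteoclast markers (r = 0.867, exact p = 0.00214, adjusted p = 0.0336, rho = 0.917). With B cell markers r was 0.952 (exact p = 0.000154, adjusted p = 0.0112), while rho, 0.833, had an adjusted exact p of 0.07.

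Slc2a6 rose with the osteoblast markers, led by Col1a1, Sparc and Col1a2 (r = 0.929, exact p = 0.000204, adjusted p = 0.0112, rho = 0.967, adjusted p = 0.0182). It was 0.874 without NGT mouse 2 and T1D mouse 1, 0.921 within groups and 0.918 in FPKM. The macrophage markers gave r = 0.905 (exact p = 0.000579, adjusted p = 0.0159, rho = 0.883), falling to 0.739 without the same libraries, and the osteoclast markers r = 0.853 (exact p = 0.00363, adjusted p = 0.0363, rho = 0.867). Slc2a9 rose with macrophage markers as well (r = 0.833, exact p = 0.00106, adjusted p = 0.0194, rho = 0.90), with 0.711 once NGT mouse 2 and T1D mouse 1 were left out, 0.772 within groups and 0.880 in FPKM. The 12 macrophage markers summed to 65.0 to 383 CPM in NGT, 144 to 2137 in T1D and 152 to 616 in Lira. Of the 11 tested, 5 were higher and 0 lower in T1D than in NGT at an unadjusted p under 0.05 by edgeR (median log2 fold change 2.08), where 2.36% of all genes were higher, and 2 were lower and 0 higher in Lira than in T1D (median -1.22), where 1.78% were lower. T1D mouse 1 held the maximum, and the sums of the other two T1D mice, 144 and 270 CPM, were within the NGT range. The 11 osteoblast markers summed to 456 to 2069 CPM in NGT, 1252 to 7313 in T1D and 715 to 1758 in Lira. All 11 were above 0 in T1D against NGT (median 1.14) and below 0 in Lira against T1D (median -1.20), where 52.1% and 55.3% of all genes were above 0. At an unadjusted p under 0.05, 1 was higher in T1D than in NGT, against 2.36% of all genes, and 0 differed between Lira and T1D. T1D mouse 1 again held the maximum, with 1253 and 1252 CPM in the other two T1D mice, within the NGT range. The part of these cells in the group values of Slc2a6 and Slc2a9 was not tested.

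The 3 negative relations depended on the scale. Slc2a8 with osteoblast markers had r = -0.889 in CPM (exact p = 0.00268, adjusted p = 0.0363) and 0.04 in FPKM. For Slc2a12 with macrophage markers r was -0.816 in CPM (exact p = 0.00354, adjusted p = 0.0363) and -0.380 in FPKM. Slc2a4 with osteoclast markers gave -0.852 in CPM (exact p = 0.00424, adjusted p = 0.0389) and -0.606 in FPKM. The osteoclast markers had a median log2 fold change of -0.59 in Lira against T1D, with 8 of 11 below 0 and sums of 303, 151 and 997 CPM in Lira mice 1, 2 and 3, the last the highest of all libraries. With the muscle markers Slc2a4 had r = 0.440 in CPM (exact p = 0.236, adjusted p = 0.336, rho = 0.500), 0.126 in FPKM and -0.111 without NGT mouse 2 and Lira mouse 2. Txnip had r = 0.395 in CPM (exact p = 0.292, adjusted p = 0.378), -0.010 in FPKM and 0.637 without the same libraries, and neither gene was past the threshold. For the endothelial markers Txnip had r = 0.705, with an exact p of 0.0286 and an adjusted p of 0.12.

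**Figure D4:**
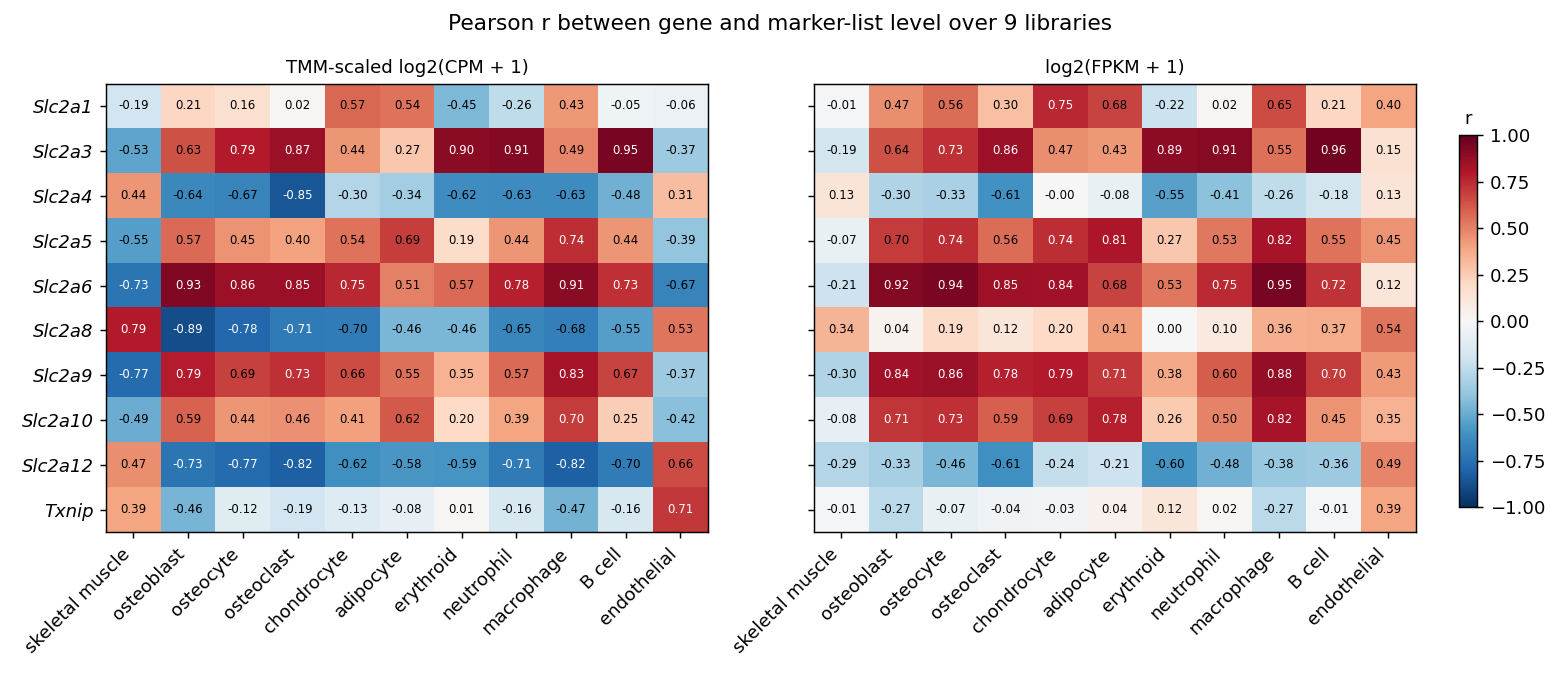
Pearson r over 9 libraries between each gene and the mean level of each marker list, on the TMM-scaled log2(CPM + 1) scale at left and on the log2(FPKM + 1) scale at right, from -1 in blue to 1 in red. Slc2a3 with the neutrophil list (0.915 and 0.907) and Slc2a6 with the osteoblast list (0.929 and 0.918) keep their values across scales, while Slc2a8 with the osteoblast list goes from -0.889 to 0.04.

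For the 6 members with a mean of at least 5 CPM, the genes of most similar pattern over the 9 libraries were sought among 10407 others, as a description. Slc2a4 was most like Dbt, a subunit of the branched-chain keto acid dehydrogenase (r = 0.987), Cdc37l1 (r = 0.978) and Fbxo44 (r = 0.977). Slc2a12 came closest to the mitochondrial adenine nucleotide carrier Slc25a4 (r = 0.979), and Tcaim was also among its nearest genes (r = 0.966). Nearest to Slc2a3 were Map4k1, a kinase of blood cells (r = 0.988), Grk6 (r = 0.987) and Mxd1 (r = 0.983). Txnip paired with Scaf8 (r = 0.970), the Wnt receptor Fzd4 (r = 0.951) and Nfrkb (r = 0.948), Slc2a8 with Dhx33 (r = 0.972), Thada (r = 0.968) and Synpo2 (r = 0.957), and Slc2a1 with 2010111I01Rik (r = 0.955), Cln6 (r = 0.934) and the muscle LIM protein gene Csrp3 (r = 0.933). The number of genes at r over 0.9 was 418 for Slc2a3 and 4 for Slc2a1. All genes of a library share its composition and its scaling factor.

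Genes related to the transporters, to Txnip or to sugar metabolism, not all of which act on the transporters, were taken from 8 lists. Of these, 0 genes of any list were past the thresholds by edgeR in any comparison. Among 14 tested factors that act on Slc2a4 transcription, 3 were lower and 0 higher in T1D than in NGT at an unadjusted p under 0.05, where 1.6% of all genes were lower, and their median log2 fold change was -0.27. They were Ppara, the fatty acid sensor, Mef2c, a muscle transcription factor, and Ppargc1a, the coactivator PGC-1alpha, the last one named after its values were seen. Ppara measured 33.7, 55.4 and 31.8 CPM in NGT, 15.9, 22.2 and 13.8 in T1D and 48.2, 51.7 and 22.3 in Lira. All 3 T1D mice were below all NGT mice and, by a narrow margin, below all Lira mice. Its log2 fold change was -1.22 (unadjusted p = 0.00875, adjusted p = 0.977 by edgeR) against NGT and 1.24 (unadjusted p = 0.00821, adjusted p = 0.978) for Lira against T1D, where it was the 1 factor of 14 under an unadjusted 0.05 and 1.55% of all genes were higher at that level. The log2 fold change of T1D against NGT was -0.53 for Mef2c and -1.38 for Ppargc1a (adjusted p = 0.977 for both by edgeR). In this comparison 15 of 22 muscle markers were below 0 and all 11 osteoblast markers above 0, where 52.1% of all genes were above 0. Of 11 macrophage markers, 5 were higher at an unadjusted p under 0.05 by edgeR, against 2.36% of all genes. The part of these cells in the values of the 14 factors was not tested.

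Of the 14 tested glucose-sensing factors and arrestin-domain relatives of Txnip, 0 were under an unadjusted 0.05 in T1D against NGT. One relative, Arrdc3, was higher in Lira than in T1D, where 1.55% of all genes were higher at that level. Arrdc3 measured 54.8, 82.7 and 77.1 CPM in NGT, 93.5, 144 and 74.1 in T1D and 499, 148 and 117 in Lira. As for Txnip, the highest value was in Lira mouse 1. Its log2 fold change was 1.30 against T1D (unadjusted p = 0.039, adjusted p = 0.978 by edgeR) and 1.83 against NGT (unadjusted p = 0.00861, adjusted p = 0.999), and Mxd4 was the other gene of the list under 0.05 against NGT (0.63), where 0.487% of all genes were higher. The ubiquitin ligase gene Nedd4, the most abundant of the list, differed by 0.15 in T1D against NGT and by -0.07 in Lira against T1D. Arrdc4, whose promoter is given above, had log2 fold changes of 0.33, 0.05 and 0.37 in T1D against NGT, Lira against T1D and Lira against NGT (adjusted p = 0.977, 0.990 and 0.999 by edgeR).

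Of the 15 thioredoxin system genes, 1 was higher and 0 were lower in T1D than in NGT at an unadjusted p under 0.05, where 2.36% of all genes were higher, namely Prdx4, a peroxiredoxin of the endoplasmic reticulum, at 1.06 on the log2 scale (adjusted p = 0.977 by edgeR). Prdx1, the most abundant of them, differed by 0.03, and the thioredoxin reductase gene Txnrd1 had the lowest p in Lira against T1D (0.41, unadjusted p = 0.0975, adjusted p = 0.978 by edgeR). For GLUT4 vesicle traffic, 0 of 21 genes were under 0.05 in any comparison. The lowest p in T1D against NGT was that of Exoc7, a subunit of the exocyst, at -0.75 (unadjusted p = 0.0531, adjusted p = 0.977 by edgeR), and Rab10, the most abundant gene of the list, differed by -0.21. Stxbp3 had the lowest p in Lira against T1D (-0.45, unadjusted p = 0.0611, adjusted p = 0.978 by edgeR). Among other sugar transporters 9 of 13 in the table were tested, and Slc37a2, a sugar phosphate exchanger of macrophages, was the 1 under 0.05 in T1D against NGT, at 2.43 on the log2 scale (unadjusted p = 0.0188, adjusted p = 0.977 by edgeR), where 2.36% of all genes were higher. In the same comparison 5 of 11 macrophage markers were higher at that level, and their part in the Slc37a2 value was not tested. Slc37a4, the most abundant of these transporters, differed by -0.48 in T1D against NGT, and Slc50a1, with the lowest p in Lira against T1D, by -0.44 there. Of 12 tested genes of hexose phosphate metabolism, which took in kinases, phosphatases, mutases and transaminases, the 1 under 0.05 was Gfpt2, a transaminase that opens the hexosamine pathway. It measured 12.3, 6.88 and 7.36 CPM in NGT, 35.2, 15.5 and 14.5 in T1D and 12.3, 8.64 and 7.06 in Lira, with log2 fold changes of 1.30 for T1D against NGT (unadjusted p = 0.0125, adjusted p = 0.977 by edgeR) and -1.22 for Lira against T1D (unadjusted p = 0.0166, adjusted p = 0.978), where 1.78% of all genes were lower at an unadjusted 0.05. T1D mice were above all others for this gene, which was highest in T1D mouse 1, the library with the lowest muscle share. Pgm2, the most abundant gene of this list, differed by -0.16 and 0.06 in the same comparisons.

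Hypoxia-induced genes, of which Slc2a1 is itself a known example, had 0 of 15 under an unadjusted 0.05 in any comparison. Pfkfb3, an activator of glycolysis, had the lowest p in T1D against NGT (log2 fold change 1.64, unadjusted p = 0.0724, adjusted p = 0.977 by edgeR), and Ldha, the most abundant, differed by -0.09. Car9 had the lowest p in Lira against T1D (0.93, unadjusted p = 0.0563, adjusted p = 0.978 by edgeR). Genes for urate and fructose handling had 0 of 9 tested under 0.05 in any comparison. Aldoc had the lowest p of them (log2 fold change 2.21 in T1D against NGT and -1.39 in Lira against T1D, adjusted p = 0.977 and 0.978 by edgeR), from 0 to 2.01 CPM, and Akr1b3, the most abundant, differed by -0.01 and -0.15.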

How the data were processed

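Tibia RNA of 9 mice was sequenced as poly(A)-selected libraries. The authors aligned clean reads to the mouse genome (mm9 in the submitters' processing notes) and deposited expected counts per gene, not normalized, of which 30.2% are not whole numbers. The FPKM values were deposited by the authors too, scaled by them for gene length and library total. Aligner and counter are not given in the sources used here. The members and gene lists were chosen with earlier results of these data known. The labels gave every group.

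Counts were rounded, and 13960 genes reaching 10 counts in 3 or more libraries were kept. R 4.3.3 with edgeR 4.0.16 (TMM, quasi-likelihood test, 1 mean per group over 9 libraries) gave log2 fold changes, with Benjamini-Hochberg adjustment over all genes tested. Exact permutation tests used log2(CPM + 1) and were two-sided. The procedure was tested on simulated data that held no shift in tissue composition between libraries, so such shifts were not covered. Nothing says more about the replicates than 1 mouse each. Same-numbered NGT and T1D mice correlated at 0.284 to 0.641 in their deviations from the group means, over the limit of 0.1, so numbers were taken to pair these groups, although no source describes a pairing. Same-numbered T1D and Lira mice gave -0.286 to 0.608 and were not taken as pairs. Among differently numbered mice, Lira mouse 3 with NGT mouse 1 reached 0.778, both of low muscle share. Alternatives were DESeq2 1.42.0, library-size scaling, no low-count filter, 2-group fits, the block, limma 3.58.1 on log2(FPKM + 1), no fold threshold and leaving out each mouse. The 2-group block, the fit without the 3 libraries of low muscle share, and the other scales for correlations and for Slc2a4 and Txnip ratios were chosen after seeing the data. The named genes were all members, any list gene past the thresholds, the most abundant gene and the lowest p of each list in the first 2 comparisons, the 3 most abundant markers and the 3 genes most like each member of at least 5 CPM, of which 1 is not reported here. Promoters came from RefSeq on GRCm38.p6, whose coordinates do not apply to mm9.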

Additional observations from a re-analysis of the deposited data

How the results depend on the processing

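The common biological coefficient of variation was 0.433, and groups of 3 mice, with no p under 0.1 by exact permutation, limit every comparison. Levels of Slc2a5, Slc2a6, Slc2a9 and Slc2a10 rest on few counts, down to 0 to 6 per library for Slc2a5, where counting error is large too. DESeq2 placed 1 gene past the thresholds in Lira against T1D and 1 over the 3 groups, against 0 by edgeR, and no member. Of 140 member values under alternatives, the sign was kept in 122 for T1D against NGT, in 132 for Lira against T1D and in 127 for Lira against NGT, and 0 crossed the thresholds. The pairing block over all 9 libraries changed the sign of Slc2a5, to -0.48, 0.49 and 0.012 in these 3 comparisons, and the block of 2 groups gave -0.62 and 0.094 for the first 2. It changed no call past the thresholds, but the genes with an unadjusted p under 0.05 in T1D against NGT went from 552 to 752 over 9 libraries, and from 557 to 1952 in the fits of 2 groups. FPKM with limma gave -0.0052 for Slc2a5 and 0.045 for Slc2a8 in T1D against NGT, and library-size scaling gave 0.050 for Slc2a8. Without the 3 libraries of low muscle share, T1D against NGT was -2.75 for Slc2a5 and -0.079 for Slc2a10, Lira against T1D was -0.32 for Slc2a3 and 1.93 for Slc2a5, and Lira against NGT was 0.022 for Slc2a4 and 0.030 for Slc2a12. The cause was not tested.

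Leaving out each mouse in turn turned signs as well. For T1D against NGT the ranges were -0.24 to 1.17 for Slc2a3, -4.77 to 2.10 for Slc2a5, -0.16 to 2.17 for Slc2a6, -0.10 to 0.080 for Slc2a8 and -0.39 to 0.46 for Slc2a10. For Lira against T1D they were -0.33 to 1.51 for Slc2a3, -2.92 to 3.36 for Slc2a5, -2.10 to 0.50 for Slc2a6 and -0.028 to 0.33 for Slc2a12. For Lira against NGT they were -0.16 to 2.18 for Slc2a3, -0.20 to 0.18 for Slc2a4, -2.84 to 0.61 for Slc2a5, -0.93 to 1.33 for Slc2a6, -0.30 to 1.12 for Slc2a9 and -0.24 to 0.12 for Slc2a12. Slc2a4 kept its sign in T1D against NGT (-0.87 to -0.52) and in Lira against T1D (0.48 to 0.86), Slc2a1 in all 3 comparisons (0.51 to 1.08, -0.85 to -0.29 and 0.03 to 0.49), and Txnip in all 3 (0.02 to 0.55, 0.13 to 0.81 and 0.37 to 1.05). In the order of mean log2(FPKM + 1), Slc2a8 was 3rd, Slc2a1 4th, Slc2a12 5th and Slc2a3 6th.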

Other observations

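A pair of ratios within a library was computed after the values had been seen. Slc2a4 was set against the mean level, on the log2(CPM + 1) scale, of the 22 skeletal muscle markers of the same library. The difference was -2.49, -2.91 and -2.38 in NGT mice 1, 2 and 3, -2.94, -2.67 and -3.80 in T1D and -2.52, -2.61 and -3.09 in Lira. T1D and NGT differed by -0.54 on average (exact permutation p = 0.2, two-sided) and their ranges overlapped, with T1D mouse 3 the lowest of all. Against the 11 adipocyte markers the T1D to NGT difference was -1.07 (exact permutation p = 0.3).

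The FPKM of Txnip divided by that of Slc2a4 was 1.29, 0.957 and 0.857 in NGT, 0.986, 1.83 and 3.22 in T1D and 2.47, 1.31 and 1.66 in Lira. All Lira ratios were above all NGT ratios, by the narrow margin of 1.31 against 1.29, with a mean difference of 0.78 on the log2 scale and an exact permutation p of 0.1, the smallest 3 against 3 mice allow. For T1D against NGT the difference was 0.82 (exact permutation p = 0.2), with T1D mouse 1 within the NGT range, and for Lira against T1D it was -0.04 (exact permutation p = 1.0).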
